A study of Homo sapiens with 6 samples.

Results

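The mitochondrial ribosomal protein genes are the nuclear genes named MRPL, after the large subunit, and MRPS, after the small subunit, of the ribosome inside mitochondria. Members were the protein-coding genes of the deposited count table whose GENCODE symbol is MRPL or MRPS followed by a number and at most 1 letter from A to C. This rule found 78 of the 58299 genes of the table, 49 MRPL and 29 MRPS genes on 21 chromosomes. All 78 passed the filter on low counts, with 40 to 4090 counts per member and library.

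RNA was sequenced from AC16 cells, an established human line made by fusing adult ventricular heart cells with transformed fibroblasts. Control cells (3 libraries) had only the solvent, 0.1% DMSO, for 72 h. Treated cells (3 libraries) were given 100 nM CDDO-Me for 24 h and then 100 nM doxorubicin for 48 h. CDDO-Me is a triterpenoid that releases the transcription factor NRF2 from its inhibitor KEAP1, and doxorubicin, a chemotherapy drug of the anthracycline class that can harm the heart, poisons topoisomerase II. Neither drug alone was analysed here, so the changes below cannot be divided between them. Whether the replicates were separate cultures is not stated in the labels, so the spread behind each p-value is that of these libraries and could be technical.

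Depth was 17150259 to 20193957 counts per library, and 0.370% to 0.393% of the counts of a library fell in the 78 members. The line is a limited model of heart muscle. Of 14 cardiomyocyte markers, 3 passed the filter on low counts, the highest being the transcription factor gene GATA4 at 17.9 ± 2.12 CPM (counts scaled to a common library total; SD, n = 3) in controls, while the myosin genes MYH6 and MYH7 had no counts in controls. All 10 fibroblast markers passed, and 9 of them fell, so that their summed level was 24480 to 26960 CPM in controls and 13160 to 13990 in treated libraries. Of 7 endothelial and leukocyte markers 3 rose, from a summed level of 2.54 to 4.44 CPM to 8.91 to 9.63. The part of these shifts in the results below was not tested. AC16 is an established line, and the marker names do not stand for separate cell types counted in it. Bulk RNA cannot tell fewer cells carrying a transcript from less of that transcript per cell.

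The mitochondrial ribosome translates the few proteins encoded by mitochondrial DNA, all of them core parts of the respiratory chain and the ATP synthase. Its ribosomal RNAs come from mitochondrial DNA, while every one of its proteins is encoded in the nucleus, made in the cytosol and imported. Many of its proteins descend from bacterial ribosomal proteins, and others exist only in mitochondrial ribosomes. Inherited defects in several of them cause cardiomyopathy. Of the genes on the mitochondrial chromosome, 0 are in the count table, so the ribosomal RNAs and the messages that this ribosome translates were not analysed here.

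The family moved little and in both directions, with more members lower than higher after trimmed-mean (TMM) normalisation. Of 78 members tested, 38 fell, 16 rose and 24 were not called by edgeR's quasi-likelihood test (Benjamini-Hochberg adjusted p below 0.05 over all tested genes). Among all 15575 genes tested, 63.5% were called, 31.2% as lower and 32.3% as higher. The lower calls were thus 48.7% of members and the higher calls 20.5%. No member changed at least 2-fold, against 15.5% of all tested genes, and 41 of the 54 called members changed by less than 0.5 on the log2 scale. The median log2 change was -0.15 over the members and 0.02 over all tested genes, and the middle 50% of members lay between -0.37 and 0.12. All treated libraries lay below all controls in 40 members and above them in 15, so that groups overlapped in 23; over all tested genes the groups did not overlap in 66.7%.

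The balance of calls depends on how the libraries are scaled, because the changes are small. Levels are CPM after TMM normalisation unless stated otherwise. Scaled by total counts alone, 24 members were higher and 24 lower, beside 40.8% and 23.1% of all tested genes. That scaling raised the median of all genes from 0.02 to 0.15 and that of the members from -0.15 to -0.02. In TMM-normalised CPM the summed level of the family was 3973, 4073 and 3880 in controls and 3696, 3617 and 3597 in treated libraries. The treated sums were all below the control sums, at 0.915 of the control mean. This too depends on the scaling, as TMM factors were 0.9513 to 0.9655 in controls and 1.032 to 1.052 in treated libraries. Unscaled, members held 69168 of 18323161, 67374 of 17150259 and 71670 of 19387496 counts in controls. In treated libraries they held 76715 of 19792752, 73507 of 19732013 and 76222 of 20193957. These shares of total counts overlapped between the groups. Of the 54 calls, 35 held in the same direction in all 14 alternative fits, 24 lower and 11 higher. The matching share over all tested genes was not computed, so it cannot be said whether members held more or less often.

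**Figure D1:**
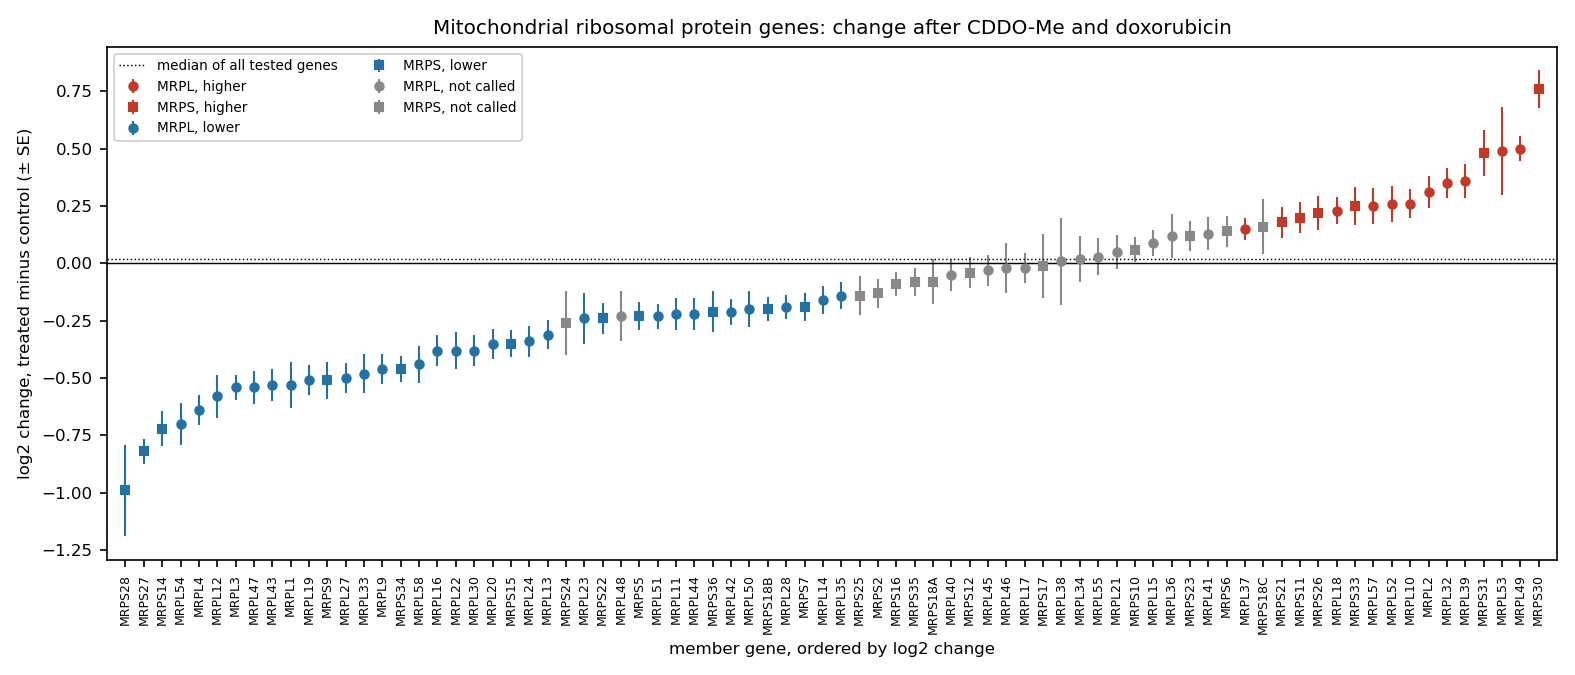
Log2 change (treated minus control) of each of the 78 members with its standard error, ordered from the lowest to the highest. Circles are MRPL and squares MRPS genes, blue marks the 38 lower, red the 16 higher and grey the 24 members that were not called, and the dotted line is the median of all tested genes; changes run from -0.99 in MRPS28 to 0.76 in MRPS30.

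Members share features of their promoters that the choice by name did not use. Windows of 300 bases, 250 before and 50 after the first listed RefSeq start (build GRCh38.p14), were at hand for 69 members. Both strands were searched for CCGGAAG, the core bound by ETS factors such as GABP, for AAGATGGCG, a YY1 site, and for GCGC and TGCGC separated by 1 base of any kind, a site of nuclear respiratory factor 1 (NRF1, a factor unrelated to NRF2). CCGGAAG stood in 29 of the 69 windows (42.0%), against 14.4% of 14896 windows of coding genes. AAGATGGCG stood in 13 (18.8%, against 2.83%) and the NRF1 letters in 8 (11.6%, against 8.62%). Of the 14 AAGATGGCG matches 11 began within 60 bases of the start. Their median first base was 9.5 after the start, so many lie in transcribed bases and not upstream. No ETS match overlapped a YY1 or NRF1 match in a member. TGACNNNGC, the core of the antioxidant response element bound by NRF2, stood in 8 windows (11.6%, against 14.3%), and the E-box CACGTG in 6 (8.70%, against 8.94%). These matches are letters in a window, not measured binding sites.

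The ETS letters lay close to the start and occurred in similar shares of members that rose, fell or were not called. Of 39 matches in members, 28 began within 60 bases of the start. The motif stood in 6 of 14 windows of higher members, 14 of 33 of lower members and 9 of 22 of members not called. Stretches upstream of the start are shown for 5 called members that carry these letters, and the part of the letters in any change was not tested. In these a match lies in the longest upstream run free of annotated untranslated regions. Other upstream runs were not searched for this choice. Capitals mark CCGGAAG or its reverse complement, and each stretch is read 5′ to 3′ on the strand of the gene.
MRPS31, which rose (chr13:40771191-40771310, minus strand): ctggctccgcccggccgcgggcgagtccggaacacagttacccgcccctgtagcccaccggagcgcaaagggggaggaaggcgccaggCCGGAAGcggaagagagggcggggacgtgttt
MRPL3, which fell (chr3:131502984-131503091, minus strand): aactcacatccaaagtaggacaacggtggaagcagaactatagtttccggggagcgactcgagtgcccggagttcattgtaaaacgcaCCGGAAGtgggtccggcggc
MRPL58, which fell (chr17:75012550-75012669, plus strand): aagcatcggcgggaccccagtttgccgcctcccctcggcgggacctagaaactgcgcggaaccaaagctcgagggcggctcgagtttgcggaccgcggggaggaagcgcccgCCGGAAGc
MRPL20, which fell (chr1:1407314-1407413, minus strand): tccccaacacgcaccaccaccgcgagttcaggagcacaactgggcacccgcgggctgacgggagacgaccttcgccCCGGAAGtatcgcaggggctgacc
MRPS22, which fell (chr3:139343874-139343955, plus strand): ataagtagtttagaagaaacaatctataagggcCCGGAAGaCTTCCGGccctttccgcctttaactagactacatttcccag
In MRPS31 and MRPL3 the motif lies at the same place before the RefSeq start used here, from base -32 to -26. In the gene spans of the deposited counts, MRPS31 starts at base 40771173 and MRPS22 at 139005806. Places in these 2 genes thus depend on the start that is used. MRPS31 had a log2 change of 0.48 and MRPL3 one of -0.54. In MRPS22 the letters occur on both strands, 1 base apart.

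The largest increase was in MRPS30. MRPS30 (ENSG00000112996, GRCh38 chromosome 5, 44808925 to 44820428) bears the name of a small-subunit protein, but structures place its product in the large subunit. It stood at 20.1, 21.6 and 19.9 CPM in controls and at 36.8, 32.8 and 34.5 in treated libraries. All treated values exceeded all controls, with a log2 change of 0.76 (SE 0.082, edgeR adjusted p = 2.30e-12), or 69.0% more. MRPL49 (chromosome 11, 65122183 to 65127371), a mitochondria-specific large-subunit protein, stood at 106, 112 and 96.3 CPM in controls and 142, 156 and 146 in treated libraries. Its groups did not overlap either, with a log2 change of 0.50 (SE 0.054, edgeR adjusted p = 3.12e-12). MRPL49 shares 12.2% of its exon bases with the neighbouring genes SYVN1 and FAU.

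MRPS31 (chromosome 13, 40729135 to 40771173), a small-subunit protein with no bacterial counterpart, stood at 13, 12 and 13.9 CPM in controls and 18.0, 17.9 and 18.4 in treated libraries. The treated values were tightly grouped above the controls (log2 change 0.48, SE 0.10, edgeR adjusted p = 3.70e-05). MRPL39, another mitochondria-specific large-subunit protein, rose from 34.8 ± 3.28 to 44.5 ± 3.33 CPM (log2 change 0.36). MRPL32, a bacterial-type protein that the m-AAA protease must cut before it can be built into the large subunit, rose from 44.4 ± 3.08 to 56.4 ± 1.19 CPM (0.35). MRPL2, a bacterial-type protein at the peptidyl transferase centre, rose from 36.8 ± 0.836 to 45.7 ± 2.08 CPM (0.31). These 3 had no overlap between groups.

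MRPL53, a large-subunit protein with few counts, was the least secure of the 8 largest increases. It stood at 3.10, 2.90 and 3.84 CPM in controls and 5.15, 4.82 and 3.92 in treated libraries. The lowest treated value lay just above the highest control (log2 change 0.49, SE 0.19, edgeR adjusted p = 0.0218). The call was lost without control replicate 1 (0.44), control replicate 2 (0.40), treated replicate 1 (0.40) or treated replicate 2 (0.46), with edgeR adjusted p of 0.0634, 0.0940, 0.105 and 0.0618, and with DESeq2 (adjusted p = 0.0516). MRPL53 shares 45.2% of its exon bases with CCDC142, and the libraries carry no strand.

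Among the members that fell, MRPS28 had the largest change, on few counts. MRPS28 (ENSG00000147586, chromosome 8, 79918717 to 80030289), a small-subunit protein related to bacterial S1, stood at 4.71, 6.71 and 5.74 CPM in controls. In treated libraries it stood at 4.0, 2.76 and 1.89 CPM, all below the controls but spread over more than 2-fold. Its log2 change was -0.99 (SE 0.20, edgeR adjusted p = 1.98e-05), and it shares 35.8% of its exon bases with another annotated gene.

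MRPS27 fell most among the well-expressed members. MRPS27 (ENSG00000113048, chromosome 5, 72219409 to 72320646) encodes a pentatricopeptide-repeat protein of the small subunit. It stood at 115, 123 and 117 CPM in controls and at 67.0, 67.0 and 66.8 in treated libraries. The treated libraries were nearly identical and far below the controls (log2 change -0.82, SE 0.055, edgeR adjusted p = 8.99e-21), or 43.4% less. MRPS14 (chromosome 1, 175010789 to 175023425), a bacterial-type small-subunit protein in which mutations have been linked to cardiomyopathy, stood at 39.0, 40.5 and 38.9 CPM in controls and 25.2, 23.5 and 23.0 in treated libraries. Its groups were well apart, with a log2 change of -0.72 (SE 0.077, edgeR adjusted p = 1.13e-12).

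In the large subunit, MRPL54 (chromosome 19, 3762664 to 3768575), a mitochondria-specific protein, stood at 27.3, 25.3 and 26.0 CPM in controls and 16.8, 16.6 and 15.1 in treated libraries. Its groups were well apart, with a log2 change of -0.70 (SE 0.090, edgeR adjusted p = 6.45e-10). MRPL4, a bacterial-type protein that lines the exit tunnel, fell from 69.7 ± 3.62 to 44.8 ± 3.78 CPM (log2 change -0.64). MRPL47, a bacterial-type protein near the tunnel exit, fell from 47.5 ± 4.42 to 32.7 ± 1.59 CPM (-0.54). MRPL3, which reaches the peptidyl transferase centre and in which mutations cause cardiomyopathy, stood at 122, 131 and 131 CPM in controls and 91.8, 85.4 and 86.7 in treated libraries. All treated values were below all controls (log2 change -0.54, SE 0.054, edgeR adjusted p = 1.17e-13).

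**Figure D2:**
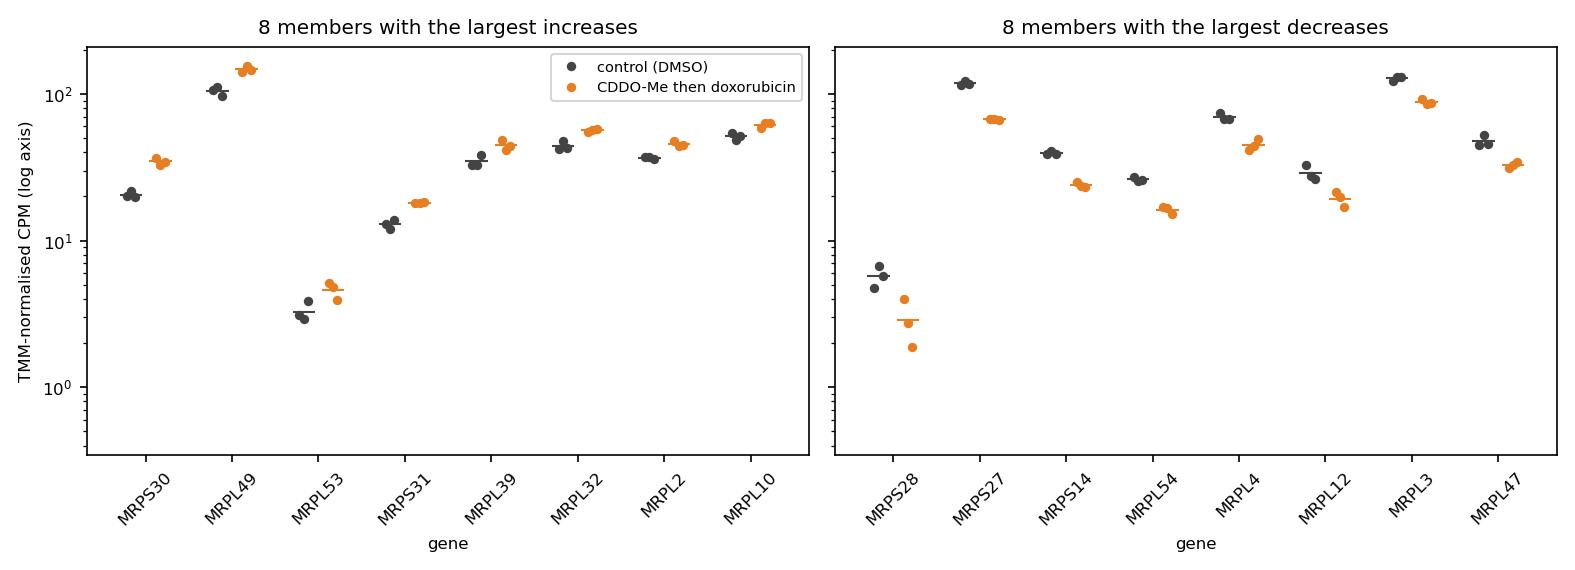
TMM-normalised CPM on a log axis of the 8 members with the largest increases (left) and the 8 with the largest decreases (right) in each of the 3 control and 3 treated libraries; short lines are group means. Groups do not overlap in any of the 16, which were chosen by their change in these same libraries. Over all tested genes the groups did not overlap in 66.7%. MRPS28 and MRPL53 have the lowest levels and the widest spread.

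The proteins of the stalk, which recruits translation factors to the large subunit, did not move together. MRPL12, the stalk protein itself, which has also been described as a binding partner of the mitochondrial RNA polymerase, stood at 32.9, 27.5 and 26.3 CPM in controls and 21.5, 19.7 and 16.8 in treated libraries. The groups did not overlap (log2 change -0.58, SE 0.092, edgeR adjusted p = 1.38e-07), although 68.2% of its exon bases lie in exons of another annotated gene. MRPL10, which anchors MRPL12, rose from 51.5 ± 2.82 to 61.7 ± 2.82 CPM (log2 change 0.26, edgeR adjusted p = 3.10e-04). MRPL11, at the base of the stalk, fell from 49.9 ± 2.73 to 42.7 ± 4.24 CPM (log2 change -0.22, edgeR adjusted p = 0.00452). The MRPL11 call was lost without treated replicate 2 (-0.16, edgeR adjusted p = 0.0623) and with total-count scaling (-0.09).

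Members with other known tasks differed as well. MRPL58, a peptidyl-tRNA hydrolase that frees stalled chains, fell from 32.2 ± 2.60 to 23.7 ± 1.04 CPM (log2 change -0.44, edgeR adjusted p = 3.11e-06). MRPL45, which attaches the ribosome to the inner membrane, stood at 51.7 ± 2.63 and 50.6 ± 4.76 CPM (-0.03, SE 0.067, not called). MRPS12, which lies at the decoding site, stood at 50.6 ± 3.14 and 49.3 ± 1.94 CPM (-0.04, SE 0.066, not called). MRPL41, reported to act on p53, stood at 40.8 ± 3.66 and 44.6 ± 4.60 CPM (0.13, SE 0.073, edgeR adjusted p = 0.113). It was called higher without control replicate 1 (0.20, edgeR adjusted p = 0.0226), as well as with upper-quartile (0.18, edgeR adjusted p = 0.0229) and total-count scaling (0.26, edgeR adjusted p = 0.00146).

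Other members known from inherited mitochondrial disease moved by small amounts. MRPL44, a cardiomyopathy gene, fell from 43.3 ± 1.20 to 37.2 ± 1.51 CPM (log2 change -0.22, edgeR adjusted p = 0.00438). MRPS22 fell from 48.7 ± 4.47 to 41.2 ± 1.13 CPM (log2 change -0.24, edgeR adjusted p = 0.00212). Both calls were lost with total-count scaling (-0.09 and -0.11). MRPS16 stood at 122 ± 4.61 and 114 ± 5.60 CPM (-0.09, SE 0.053, not called).

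The 3 paralogues of bacterial S18 are incorporated at different places of the ribosome and also differed in level. MRPS18B, a small-subunit protein, was the most abundant and fell from 125 ± 5.95 to 109 ± 0.932 CPM (log2 change -0.20, edgeR adjusted p = 6.70e-04; lost with total-count scaling at -0.07). MRPS18A, whose product sits in the large subunit despite its name, stood at 18.5 ± 1.10 and 17.5 ± 2.17 CPM (-0.08, SE 0.099, not called). MRPS18C, the bacterial-type small-subunit copy, stood at 12.5 ± 2.89 and 14 ± 1.70 CPM (0.16, SE 0.12, not called). Its call depends on the control libraries: it was called higher without control replicate 2 (0.30, edgeR adjusted p = 0.0431) or with total-count scaling (0.29), and its value was -0.01 without control replicate 1. MRPS36, which bears the family name but is now known as a subunit of the oxoglutarate dehydrogenase complex, had overlapping groups at 22.3 ± 2.23 and 19.2 ± 0.564 CPM. Its call as lower (log2 change -0.21, edgeR adjusted p = 0.0364) was lost without control replicate 2 (edgeR adjusted p = 0.113), control replicate 3 (0.126), treated replicate 1 (0.0633) or treated replicate 2 (0.0951), with DESeq2 (adjusted p = 0.0616) and with upper-quartile (-0.16) and total-count scaling (-0.09).

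Members were then grouped by the place of their product in the ribosome and by origin. Both were assigned from background knowledge, so single members could be placed otherwise, such as MRPL55, counted here as mitochondria-specific. Of all tested genes 31.2% were called lower and 32.3% higher, and 23.1% and 40.8% with total-count scaling. Of 51 large-subunit members 27 fell and 11 rose, with a median log2 change of -0.19. With total-count scaling 18 of them fell and 15 rose, with a median of -0.06. Of 26 small-subunit members 10 fell and 5 rose, with a median of -0.11 that became 0.02 with total-count scaling, where 6 fell and 9 rose. Of 45 members with a bacterial homologue 26 fell and 6 rose, with a median of -0.22; with total-count scaling 19 fell and 12 rose, with a median of -0.09. Of 32 members counted as mitochondria-specific, among them the S18 paralogues MRPS18A and MRPS18B, 11 fell and 10 rose, with a median of -0.04. Their lower calls were 34.4% and their higher calls 31.2%, close to the shares of all tested genes. With upper-quartile scaling 10 were lower and 12 higher (median 0.01). With total-count scaling 5 were lower and 12 higher (median 0.09), where calls among all tested genes also shifted towards higher. The lower calls were most frequent among large-subunit members with a bacterial homologue, where 20 of 29 fell and 4 rose with a median of -0.31; with total-count scaling 15 fell and 7 rose, with a median of -0.18. The differences between these classes were not tested.

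**Figure D3:**
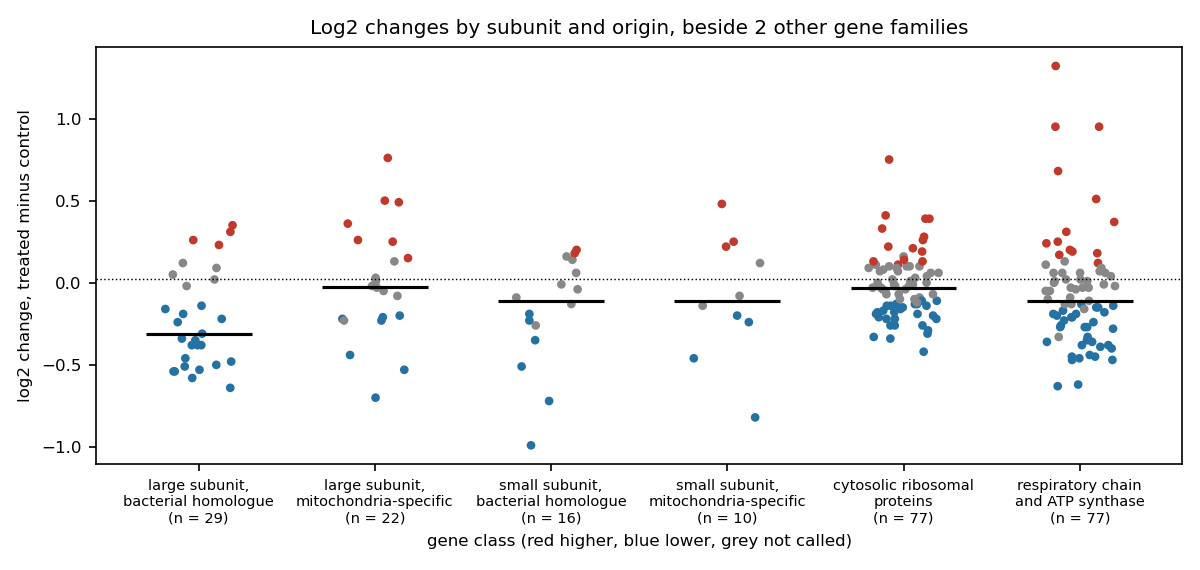
Log2 change (treated minus control) of each tested gene in 4 classes of members and in 2 other gene families; black bars are class medians, the dotted line is the median of all tested genes, and colours give the edgeR call (red higher, blue lower, grey not called). Large-subunit members with a bacterial homologue have the lowest median, -0.31, and cytosolic ribosomal proteins cluster near 0.

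Levels per length differed far more between members than between groups. As mean CPM per kilobase of exon over the 6 libraries, members ran from 1.05 in MRPL38 to 77.5 in MRPS34, a ratio of 73.8. The next highest were MRPL14 (73.6), MRPL37 (69.4), MRPL51 (69.2) and MRPL15 (68.3 CPM per kilobase), and 57 of the 78 members lay between 10 and 100. The next lowest were MRPL46 (1.86), MRPS28 (2.37), MRPS18C (2.73) and MRPS24 (2.83 CPM per kilobase).

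The members with low levels per length often share exons with other genes. Length here counts all annotated exon bases, so a long annotation lowers the value. MRPS30, at 20.5 CPM in controls and 34.7 in treated libraries, has 6202 bases and 4.45 CPM per kilobase. Over 20% of exon bases were shared in 7 of the 12 members below 5 CPM per kilobase, and in 14 of all 78. MRPL38 shares 41.1% of its exon bases, MRPS18C 40.2% and MRPS24 23.2%, the last with a readthrough gene, while MRPL46 shares 7.90%. MRPS18A shares 47.0% with RSPH9. How reads in shared exons were treated is not stated in the labels, and the part of overlap in these levels was not tested.

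Some of the most abundant members fell and others rose. MRPS34 stood at 103, 98.5 and 94.5 CPM in controls and 70.9, 70.3 and 73.2 in treated libraries, all lower (log2 change -0.46, SE 0.056, edgeR adjusted p = 8.63e-11). MRPL51 fell from 116 ± 3.83 to 98.8 ± 7.16 CPM (-0.23, but -0.10 and not called with total-count scaling). It shares 31.3% of its exon bases with the condensin gene NCAPD2. MRPL14 fell from 74.5 ± 5.50 to 66.7 ± 0.413 CPM (log2 change -0.16, edgeR adjusted p = 0.0180), a call lost without control replicate 2 (-0.12, edgeR adjusted p = 0.109) and with upper-quartile (-0.10) and total-count scaling (-0.03). MRPL37 had the highest CPM in the family and rose from 167 ± 10.0 to 186 ± 7.13 (log2 change 0.15, edgeR adjusted p = 0.00593). That call was lost without control replicate 3 (0.11, edgeR adjusted p = 0.0789) or treated replicate 3 (0.13, edgeR adjusted p = 0.0616). MRPL15 (0.09), MRPL38 (0.01), MRPL46 (-0.02) and MRPS24 (-0.26 on the log2 scale) were not called, although MRPL15 was called higher with upper-quartile (0.14) and total-count scaling (0.21).

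**Figure D4:**
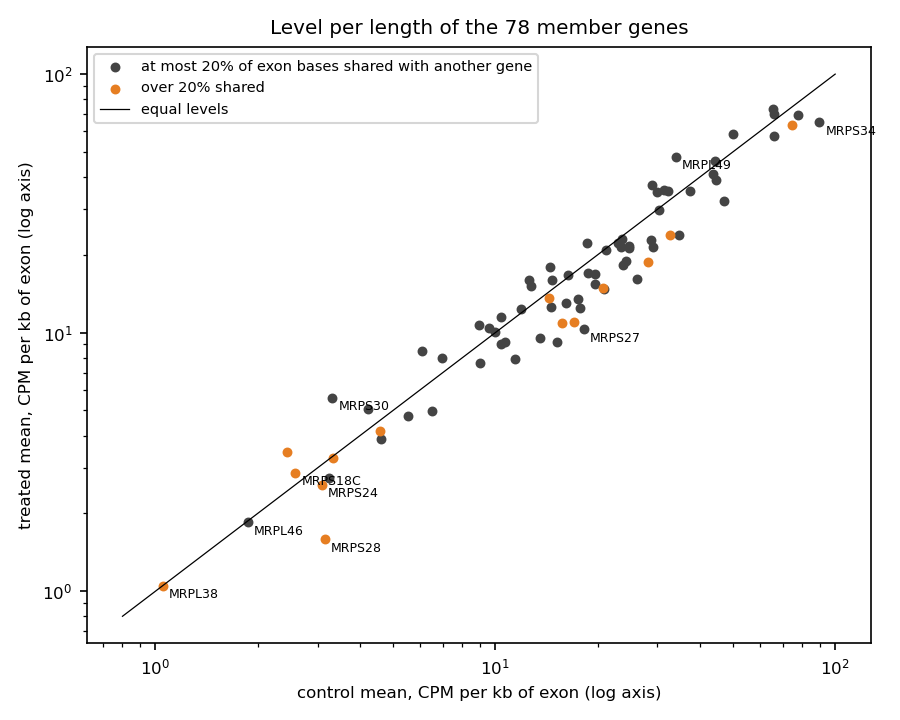
Mean level per kilobase of exon of each of the 78 members in controls (horizontal) and treated libraries (vertical), both on log axes, with the line of equal levels. Orange points share over 20% of their exon bases with another gene; MRPS30 and MRPL49 lie above the line and MRPS27, MRPS28 and MRPS34 below it.

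Many members start next to a gene on the opposite strand, and pairs with both genes called moved in the same or in opposite directions. A coding gene on the other strand started within 1000 bases of 29 of the 78 members (37.2%), against 13% of all coding genes. These members form 29 pairs, 1 of them between MRPL46 and MRPS11. Both genes of a pair were called in 11, in the same direction in 5 and in opposite directions in 6. Over all coding pairs the counts were 257 and 210, so both directions were common there too. The 11 pairs are too few to be told from that. MRPL49 (0.50) rose with FAU (0.25), which encodes a ubiquitin-like protein fused to a cytosolic ribosomal protein. MRPL51 (-0.23) fell with the condensin gene NCAPD2 (-1.25). NCAPD2 covers 31.3% of the exon bases of MRPL51, and the libraries carry no strand. The part of shared reads in this pair was not tested. MRPL54 (-0.70) fell while APBA3 (0.37) rose, and MRPL14 (-0.16, a call that depends on scaling as given above) fell while TMEM63B (1.10 on the log2 scale) rose.

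The 5 proteins of the mitochondrial ribosome that do not carry the MRP names had no member higher. CHCHD1, in the small subunit, fell from 27.8 ± 2.92 to 21.9 ± 1.91 CPM and AURKAIP1, also in the small subunit, from 94.6 ± 6.45 to 74.8 ± 5.65 CPM, each with a log2 change of -0.34. GADD45GIP1, in the large subunit, fell from 55.4 ± 3.32 to 45.5 ± 1.04 CPM (-0.28). The small-subunit genes DAP3, at 114 ± 4.55 and 112 ± 5.47 CPM, and PTCD3, at 87.4 ± 2.27 and 86.3 ± 2.66 CPM, had log2 changes of -0.02 each and were not called.

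Of 28 factors that assemble the mitochondrial ribosome or modify its RNA, 13 fell (46.4%) and 3 rose (10.7%), with a median log2 change of -0.14. Here and for the lists below, the shares of all tested genes were 31.2% lower and 32.3% higher. Total-count scaling moved the median of all tested genes from 0.02 to 0.15, so medians this small may depend on the scaling. C1QBP, a matrix protein needed for mitochondrial translation, fell from 289 ± 7.48 to 154 ± 8.37 CPM (-0.91, SE 0.049, edgeR adjusted p = 3.08e-25). GTPBP6, a GTPase of ribosome recycling and assembly, fell from 39.2 ± 4.32 to 22.0 ± 1.28 CPM (-0.83). RCC1L (-0.63), RPUSD4 (-0.62) and RBFA (-0.49), which act on the ribosomal RNAs or the maturing subunits, fell too, while the GTPase gene GTPBP10 (0.37 on the log2 scale) had the largest of the increases.

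Of 17 genes of mitochondrial translation factors and messenger RNA binding proteins, 7 fell (41.2%) and 3 rose (17.6%). Their median log2 change of -0.09 became 0.04 with total-count scaling. The elongation factor exchange gene TSFM (-0.43), the recycling factor gene MRRF (-0.35) and the elongation factor gene GFM1 (-0.31) fell. OXA1L, which inserts the new chains into the inner membrane, rose from 59.3 ± 2.67 to 76.6 ± 3.64 CPM (0.37). Among 16 genes of mitochondrial DNA upkeep and transcription, 7 fell (43.8%) and 2 rose (12.5%), with a median of -0.14. The RNA-degrading enzyme gene PNPT1 (-0.63), the mitochondrial RNA polymerase gene POLRMT (-0.54) and its cofactor gene TFB2M (-0.53) fell, while TFAM, which packages mitochondrial DNA, rose from 90.9 ± 6.26 to 109 ± 1.27 CPM (0.27).

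Transcripts of regulators that are known to act on nuclear genes for mitochondria moved both ways, 5 of 10 lower and 3 higher. MYC fell from 76.9 ± 3.16 to 39.5 ± 2.02 CPM (log2 change -0.96), NRF1 from 24.6 ± 0.939 to 14.4 ± 0.848 CPM (-0.77) and the coactivator gene PPRC1 from 113 ± 6.20 to 74.1 ± 2.90 CPM (-0.62). Of the 2 chains of GABP, which binds the ETS letters shown above, GABPB1 fell (-0.53) and GABPA rose (0.26 on the log2 scale). PPARGC1A, a coactivator of mitochondrial biogenesis, rose from 2, 1 and 4 counts in controls to 26, 25 and 23 in treated libraries, which is 1.19 ± 0.0908 CPM.

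Genes of mitochondrial protein import and of mitochondrial chaperones and proteases were also mixed. Of 25 import genes tested 10 fell and 6 rose, with a median log2 change of -0.02 that became 0.03 with upper-quartile and 0.10 with total-count scaling. TIMM13, a carrier of the intermembrane space, fell from 56.0 ± 2.50 to 28.1 ± 1.46 CPM (-0.99), and the nucleotide exchange factor gene GRPEL2 rose from 39.2 ± 1.52 to 74.7 ± 4.62 CPM (0.93). Of 10 chaperone and protease genes 6 fell, among them CLPP (-0.54), and 2 rose, among them HTRA2 (0.49 on the log2 scale).

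Cytosolic ribosomal protein genes and nuclear genes of the respiratory chain were measured for comparison. Of 77 cytosolic ribosomal protein genes 28 fell and 14 rose, with a median log2 change of -0.03 that became 0.03 with upper-quartile and 0.10 with total-count scaling, where 7 fell and 34 rose. RPS19 rose (0.75) and RPS16 fell (-0.42) most. Of 77 respiratory chain and ATP synthase genes 34 fell and 14 rose, with a median of -0.11 that became 0.02 with total-count scaling. The largest changes there were in weakly expressed genes: NDUFA13 rose from 1.45 ± 0.243 to 2.81 ± 0.122 CPM (0.95), and NDUFA7 was called higher on 7, 3 and 4 counts in controls and 11, 15 and 16 in treated libraries (log2 change 1.32, edgeR adjusted p = 0.0225). The NDUFA7 call was lost without control replicate 2 or 3 or treated replicate 2 or 3, with edgeR adjusted p of 0.108, 0.0945, 0.0665 and 0.0772, without a filter (0.0690) and with DESeq2 (adjusted p = 0.0707). In TMM-normalised CPM the summed level of the respiratory chain genes was 0.900 of the control mean. That of the cytosolic ribosomal proteins was 0.982, beside 0.915 for the mitochondrial ribosomal proteins. These ratios depend on the scaling, as TMM factors were 0.9513 to 0.9655 in controls and 1.032 to 1.052 in treated libraries. Lower and higher calls were 36.4% and 18.2% of the cytosolic ribosomal protein genes and 44.2% and 18.2% of the respiratory chain genes. Among all tested genes they were 31.2% and 32.3%. Differences between these families were not tested.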

How the data were processed

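Unstranded poly(A) libraries were made from AC16 RNA, per the labels' protocols. The authors deposited whole-number counts per gene. Alignment and counting tools are, per the submitters' processing notes, featureCounts of Subread, STAR and SAMtools, with hg38 (GRCh38) as the build. Annotation release, tool versions and counting options: not given in the sources used here. A length column in the deposited table gives gene length as summed exon bases. Symbols came from GENCODE 29, in which 58179 of 58299 identifiers were found.

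Genes were filtered with filterByExpr (minimum count 10), TMM-normalised and tested with edgeR 4.0.16 (glmQLFit, glmQLFTest; R 4.3.3). Each SE was taken as the absolute log2 change over the root of the F statistic. In data simulated for this comparison (14542 genes), 48.4% of 64 genes changed by 0.25 and 82.6% of 69 changed by 0.5 on the log2 scale were called. The only other genes changed in it were 67 changed by 1, far fewer than the 63.5% of genes called here. The adjusted p threshold was thus stricter there, and these shares need not hold for the real data. Replicate pairs differed beyond sampling noise (chi-square per degree of freedom 3.01 to 4.05). Exon overlap used bedtools 2.31.1.

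The members and lists were chosen with earlier results of these data known. Named are the 8 largest increases and 8 largest decreases, members with a known role, the 5 highest and 5 lowest per length, and the 2 largest changes of each list; further list genes and promoter neighbours were chosen after their values were seen. Alternatives were scaling by total counts, by upper quartiles or by RLE factors, dropping the filter or asking for 1 CPM in 3 libraries, DESeq2 1.42.0, limma-voom (limma 3.58.1), a replicate block, each library left out, an adjusted p of 0.01, and no member over 50% overlapped.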

Additional observations from a re-analysis of the deposited data

How the results depend on the processing

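The counts of members higher and lower stayed within 1.5 times the reported values under all alternatives except total-count scaling, where 24 were lower. No called member changed direction under any of them. The median log2 change of the members, -0.15, was -0.10 with upper-quartile and -0.02 with total-count scaling, and that of all genes, 0.02, was 0.08 and 0.15, and 0.51 without a filter. Leaving out each library in turn gave 13 to 17 members higher and 35 to 38 lower, with a median of -0.17 to -0.15. Same-numbered libraries did not deviate together (correlations of -0.022, -0.007 and -0.007) and no treated library correlated best with the control of its own number, so the numbers are not taken as pairs; with the replicate block 16 members were higher and 37 lower, the lost call being MRPL23.

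Among named genes that were not called, the sign of the log2 change turned under some settings. With upper-quartile scaling it was 0.02 in MRPL45, 0.01 in MRPS12, 0.04 in MRPL46, 0.03 in DAP3 and 0.03 in PTCD3. With total-count scaling it was 0.10 in MRPL45, 0.09 in MRPS12, 0.03 in MRPS16, 0.05 in MRPS18A, 0.11 in MRPL46, 0.11 in DAP3 and 0.11 in PTCD3. MRPL38 had -0.01 without a filter. With each library left out in turn, the ranges were MRPL45 -0.10 to 0.03, MRPS18A -0.14 to 0.02, MRPS18C -0.01 to 0.30, MRPL38 -0.07 to 0.04, MRPL46 -0.11 to 0.03, DAP3 -0.06 to 0.01 and PTCD3 -0.04 to 0.00. The cause was not tested.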
